A study of Homo sapiens with 24 samples.

Results

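The genes described here encode mitochondrial ribosomal proteins. They were chosen by symbol, as every gene named MRPL or MRPS followed by a number and at most 1 letter, which leaves out pseudogenes. Earlier results of these data were known when the choice was made. The rule found 78 of the 58884 genes listed, 49 with an MRPL and 29 with an MRPS symbol, and all 78 passed the filter on low values in both tables. By the known structure of the ribosome, 26 belong to its small subunit and 51 to its large subunit. The latter include MRPS30 and MRPS18A in spite of their names. MRPS36 is counted apart, because its product is better known as a part of the 2-oxoglutarate dehydrogenase complex.

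Mitochondria translate the few proteins encoded by their own genome, all of them parts of the respiratory chain and ATP synthase, on a ribosome of their own. The rRNAs of that ribosome come from mitochondrial DNA, while its proteins are encoded in the nucleus, made in the cytosol and imported. Some of them have counterparts in the bacterial ribosome (48 of the 78 genes here) and the other 30 do not. The data are transcript levels of the nuclear genes, and no protein or ribosome was measured.

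The RNA came from HEK293T, a human embryonic kidney cell line, in which SETD2, the enzyme that trimethylates lysine 36 of histone H3 (written H3K36me3), was intact (WT) or knocked out (KO). WT and KO cells gave 2 libraries each in a first table. In a second table, next to another 2 libraries of KO cells, stand 2 of KO cells given full-length SETD2 (SETD2 FL) and 2 of KO cells given residues 1404 to 2564 (SETD2 C, named N3 in the labels), which lack the N-terminal region. The H3K36me3 ChIP-seq samples were not analysed here. Both constructs were transfected and driven by a CMV promoter, so their transcript level is not that of the endogenous gene. SETD2 protein was not measured in these data. The KO libraries are labelled untreated, and no library of vector-transfected cells was used here, so transfection and the construct cannot be told apart. Nothing in the labels says that the 2 libraries of a group were separate cultures, so the p-values measure only the spread between these libraries, which may be technical.

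The values are TPM, transcript abundance per length and per library, and the depth behind them is unknown. They were divided by 1 factor per library to give scaled TPM, which is used below unless stated otherwise. Genes were compared only within a table, with limma on log2(scaled TPM + 0.5), and called where the p adjusted by Benjamini-Hochberg was 0.05 or less over all genes tested, 14741 in the first table and 15929 in the second. A log2 fold change is on that scale throughout. An exact permutation test of 2 against 2 libraries cannot give a p below 0.333, so none was used.

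SETD2 checks the labels. WT libraries gave it a TPM of 12.6 and 14.8, and the libraries labelled KO one of 16.2 and 16.3, so it was not lower in the latter, and which group is WT or KO is taken from the labels. The second table lists it at 11.99 and 12.15 (labelled KO), at 439 and 422 (SETD2 FL) and at 1329 and 1264 (SETD2 C). At least 4 of 6 HEK293-like markers (PAX2, LHX1, NEFL, NEFM, VIM and LIN28B) reached a TPM of 1 in every library. NEFL and NEFM, which encode neurofilaments, were higher with SETD2 C than in KO, at 147 and 157 against 65.8 and 64.1 scaled TPM for NEFL and at 272 and 319 against 129.5 and 125.8 for NEFM. The other 4 markers were not called in that comparison. The 10 markers of leukocytes, hepatocytes, fibroblasts, keratinocytes and muscle summed to a TPM of 1.19 to 1.99 outside the SETD2 C libraries, where they summed to 4.73 and 3.44, with 1 and 2 of them at 0. The SETD2 C libraries also had the most genes above 0, at 27104 and 26139 against 24306 to 25480 elsewhere. The 13 mitochondrially encoded mRNAs made up 22.6% of TPM in WT replicate 1 against 13.8% in replicate 2, and this library had the lowest scaling factor of the first table, at 0.879. The part of these differences in the results below was not tested.

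Transcripts of the mitochondrial ribosomal protein genes were of middling to high abundance, none of them under a TPM of 10 in any library. Over the second table's KO libraries, the mean scaled TPM had a median of 85.2 over the 78 genes and spanned 23.2-fold, although the ribosome holds most of these proteins in single copies. MRPL37, a large-subunit protein with no bacterial counterpart, was highest at 329.9 and 323. MRPL12, whose product forms the flexible stalk that brings in translation factors, followed at 293 and 301, and after it MRPL51 at 287 and 261, MRPS24 at 269 and 257, and MRPS34 at 252 and 258. Within these 5, MRPL37, MRPL12 and MRPS34 stood clear of the gene next below, and the others overlapped theirs. The lowest 5 were MRPS31 at 30.7 and 26.3, MRPS10 at 27.7 and 28.6, MRPL1 at 22.3 and 21.1, MRPL50 at 17.0 and 16.6, and MRPL57 at 13.9 and 14.2. The last 3 did not overlap each other. Along the whole order, 56 of the 77 pairs of neighbours overlapped in their libraries, so most adjacent ranks do not differ beyond the spread. The median was 79.1 for the small and 90.4 for the large subunit genes.

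**Figure D1:**
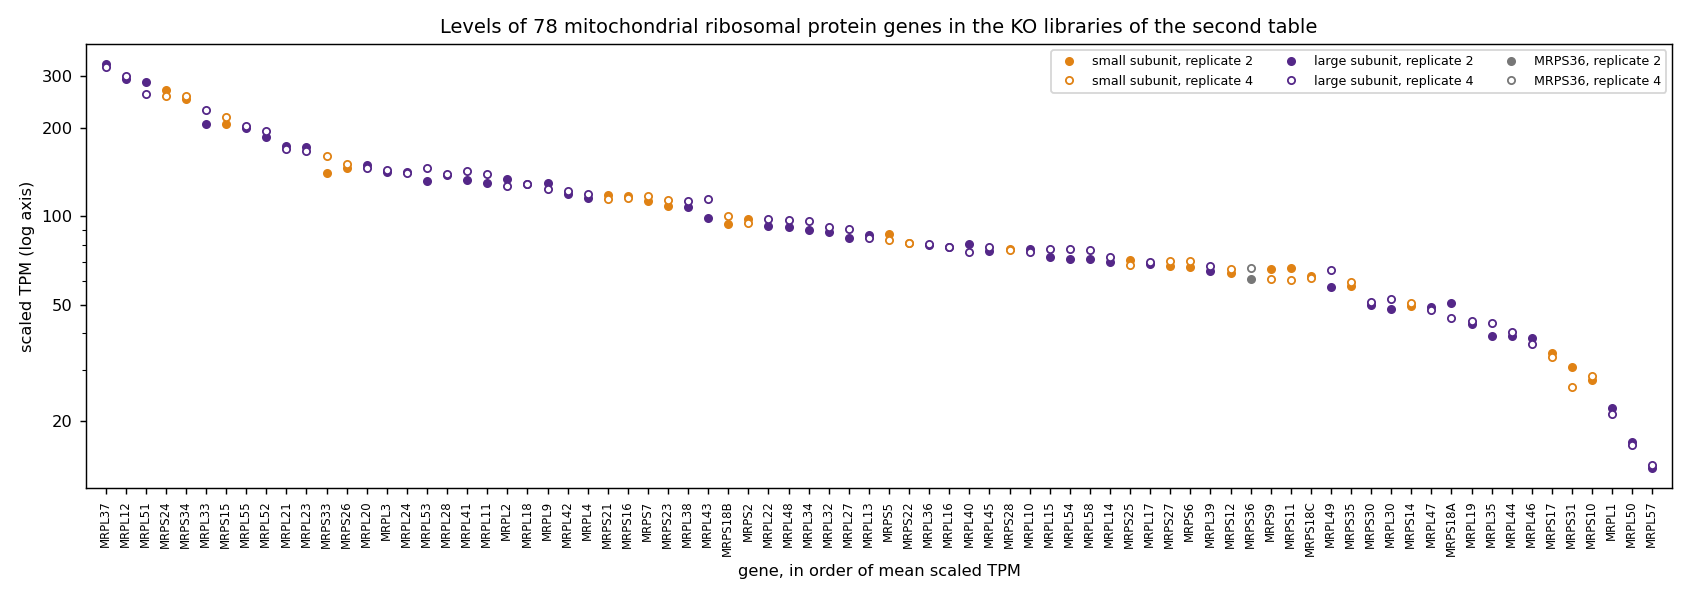
Scaled TPM on a log axis of each of the 78 genes in both second-table KO libraries (filled, replicate 2, and open, replicate 4), in order of the mean, with the small subunit in orange, the large subunit in purple and MRPS36 in grey. Levels run from a mean of 326.7 for MRPL37 to 14.1 for MRPL57, and genes of both subunits are spread along the order.

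The KO libraries of the 2 tables are labelled batch 1 and batch 2, so their TPM can only be set side by side. The ratio of the second to the first had a median of 0.876 over the 78 genes, and 77 lay between 0.5 and 2. The exception was MRPS36, with a mean TPM of 27.0 in the first and 61.4 in the second table, a ratio of 2.28. The lowest ratio was that of MRPS17, at 0.561. MRPS34 had a mean TPM of 382 in the first table and 245 in the second. Levels are therefore compared within a table only.

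Promoters of the genes are shown because many of them moved together with SETD2 C, as described further on. Windows of 300 bases, from 250 before to 50 after the transcription start in RefSeq (GRCh38.p14), were found for 69 of the 78 genes, 85 windows in all, and were searched on both strands for 3 motifs of factors known at promoters of nuclear genes for mitochondria and ribosomes. These were GCATGCG for NRF1, CCGGAAG for ETS factors such as GABP, and ATGGCGG for YY1. The ETS letters occurred in 38.8% of these windows against 10.3% of all 35116 promoter windows, the YY1 letters in 29.4% against 5.55%, and the NRF1 letters in 8.24% against 3.91%. At least 1 of the 3 was found in 51 of the 85. The 35116 windows were not restricted to genes expressed here, as the 78 are. Whether expressed genes in general share these letters was not tested. Examples with 150 bases before the start or a site of 30 bases follow, with the motif in capitals, for a gene that fell with SETD2 C (MRPL20, minus strand of chromosome 1) and 3 that rose (MRPL17, minus strand of chromosome 11, MRPS14, minus strand of chromosome 1, and MRPL1, plus strand of chromosome 4).
MRPL20 at chr1:1407294-1407443: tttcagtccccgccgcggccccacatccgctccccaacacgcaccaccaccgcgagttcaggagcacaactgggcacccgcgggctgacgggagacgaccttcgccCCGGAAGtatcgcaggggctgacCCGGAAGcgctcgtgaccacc
MRPL17 at chr11:6683341-6683490: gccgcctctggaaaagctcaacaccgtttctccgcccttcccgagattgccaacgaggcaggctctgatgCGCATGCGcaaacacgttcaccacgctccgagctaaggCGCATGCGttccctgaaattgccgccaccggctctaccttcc
MRPS14 at chr1:175023391-175023420: gtagcggacaacATGGCGGccttcatgctg
MRPL1 at chr4:77862837-77862866: ggagtgcccaacATGGCGGcggccgtaagg

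MRPL20 holds the ETS letters at 2 places and MRPL17 the NRF1 letters at 2, each of the latter matched on both strands because the motif overlaps its own reverse complement. In MRPS14 and MRPL1 the YY1 letters lie downstream of the start and contain an ATG. MRPS6 and MRPL41, which fell with SETD2 C, hold none of the 3 motifs in the 150 bases before the start, which says only that these letters are not there. At least 1 motif was found in 57.1% of the windows of genes lower with SETD2 C than in KO and in 62.8% of those of the other genes. A match describes the letters and is neither a bound site nor a cause.

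WT was compared with KO in the first table to ask what changes when SETD2 is disrupted. In the libraries labelled KO, 2 mitochondrial ribosomal protein genes were higher and none lower of 78, by limma with Benjamini-Hochberg adjustment, where 1.32% of all genes tested were higher and 3.17% lower. Both encode small-subunit proteins and rose. MRPS23, which has no bacterial counterpart, measured 62.5 and 63.8 in WT and 81.1 and 91.5 in KO. MRPS7, which binds the rRNA of the head of the small subunit, measured 96.4 and 100.4 in WT and 130.3 and 131 in KO. Their groups did not overlap. The log2 fold change was 0.45 for MRPS23 (standard error 0.08, adjusted p = 0.0369) and 0.40 for MRPS7 (standard error 0.07, adjusted p = 0.0288). MRPS7 overlaps GGA3 and MIF4GD on the opposite strand, and whether reads were counted by strand is not given in the sources used here.

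The next smallest adjusted p in this comparison belonged to MRPL45, a large-subunit protein near the exit of the nascent chain, at 63.7 and 60.9 in WT and 77.2 and 79.1 in KO (log2 fold change 0.32, adjusted p = 0.0527). At an unadjusted p under 0.05 there were 17 genes, 16 higher and 1 lower (MRPS6), where 24.9% of all genes tested reached it. The median log2 fold change over the 78 was 0.05, against -0.01 for all genes tested, with 51 positive and 27 negative. Of all genes tested, 7213 were positive and 7528 negative. Both KO libraries lay above both WT libraries for 34 of them and below for 12, where 27.4% of all genes lay above and 29.4% below. None was called with a fold change of at least 2, where 1.36% of all genes were. Of the 7205 genes at a TPM of 10 or more throughout the table, 6 were. The calls for MRPS23 and MRPS7 were both lost without WT replicate 1, without KO replicate 1 and without KO replicate 2. Without WT replicate 2 both remained and MRPS33 was called lower (log2 fold change -0.36, adjusted p = 0.047).

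In the second table the first question is what full-length SETD2 changes in KO cells. None of the 78 genes was called higher or lower with SETD2 FL than in KO by limma, where 0.207% of all genes were called in either direction. At an unadjusted p under 0.05 there were 5, 4 higher and 1 lower, against 15.9% of all genes. None was called with a fold change of at least 2, where 0.0816% of all genes were. Both SETD2 FL libraries lay above both KO libraries for 29 genes and below for 10, where 24.8% and 23.4% of all genes did so. The median log2 fold change was 0.03 and the range ran from -0.13 for MRPL42 to 0.37 for MRPL1.

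MRPL1, a protein of the mobile stalk through which used tRNA leaves the ribosome, had the smallest adjusted p. It measured 22.3 and 21.1 in KO and 26.4 and 30.1 with SETD2 FL, so the groups did not overlap (adjusted p = 0.123, 95% interval of the log2 fold change 0.19 to 0.55). MRPL46, a large-subunit protein, measured 38.5 and 36.6 in KO and 47.5 and 43.6 with SETD2 FL (log2 fold change 0.27, adjusted p = 0.146). MRPS14, a small-subunit protein with a bacterial counterpart, measured 49.4 and 50.7 in KO and 57.6 and 55.7 with SETD2 FL (log2 fold change 0.18, adjusted p = 0.194). MRPS14 overlaps CACYBP on the opposite strand. These are values that did not pass the test, and they do not show that the levels were alike.

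The second question is what SETD2 without its N-terminal region changes. With SETD2 C, 40 of the 78 genes were lower than in KO and 3 were higher, by limma with Benjamini-Hochberg adjustment, and 35 were not called. Of all genes tested, 15.1% were lower and 21.1% higher. Restricted to the 7425 genes at a TPM of 10 or more throughout the table, as all 78 are, 25.2% were lower and 15.1% higher. None of the 78 was called with a fold change of at least 2, where 4.06% of all genes and 89 of the 7425 were. An unadjusted p under 0.05 was reached by 50, where 47.1% of all genes reached it. The median log2 fold change was -0.20 for the 78 genes against 0.05 for all genes and -0.05 for those restricted by TPM. A total of 64 genes had a negative value, where 7103 of all 15929 genes and 4382 of the 7425 had one. Both SETD2 C libraries lay below both KO libraries for 57 genes and above them for 8, where 30.8% of all genes lay below and 40.5% above. Of the 7425 restricted by TPM, 3350 lay below and 2142 above. In bulk RNA, fewer cells with the transcript and less transcript per cell cannot be told apart.

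**Figure D2:**
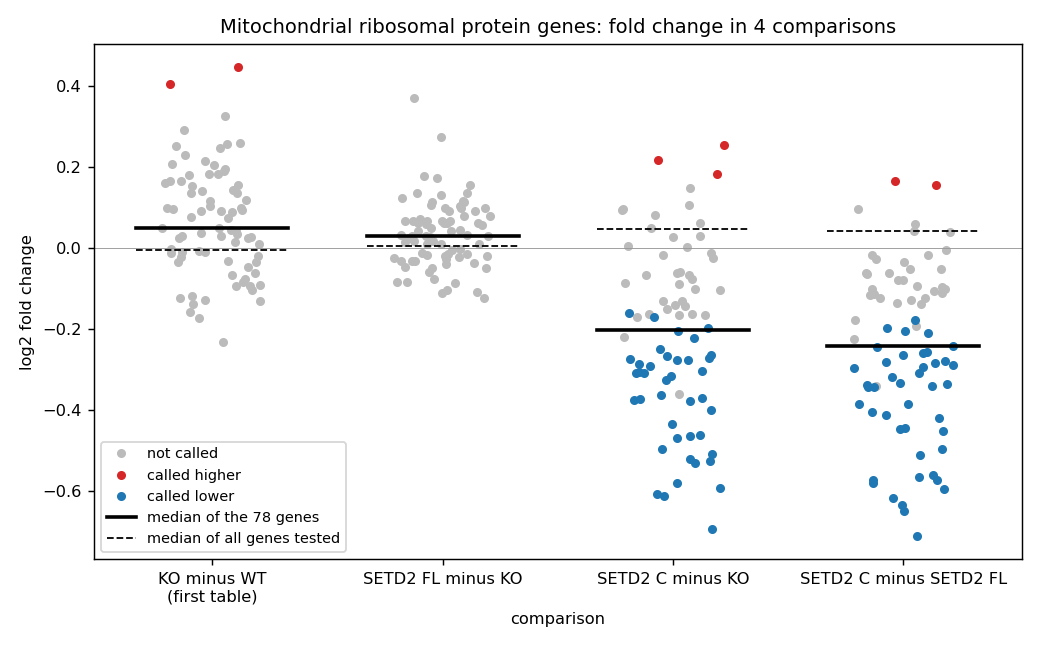
Log2 fold change of the 78 genes (points) in the 4 comparisons, with called genes in red (higher) and blue (lower), the median of the 78 as a solid line and that of all genes tested as a dashed line. In the 2 comparisons with SETD2 C the solid line lies at -0.20 and -0.24, below the dashed line at 0.05 and 0.04, while in the other 2 both lines are within 0.05 of 0.

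The largest fall was in MRPS6, a small-subunit protein with a bacterial counterpart, on chromosome 21 (34073224 to 34143034, plus strand, 3 exons). It measured 67.0 and 70.4 in KO, 65.5 and 64.6 with SETD2 FL, but 43.3 and 41.2 with SETD2 C. The SETD2 C libraries stood well below the other 4, among which those with SETD2 FL lay slightly below KO without passing the test. The log2 fold change against KO was -0.69 (standard error 0.06, adjusted p = 0.000201). MRPS6 overlaps SLC5A3 on the same strand, and the share of reads given to each by the authors' counting is uncertain.

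MRPL20, on chromosome 1 (1401909 to 1407293, minus strand, 4 exons), encodes a protein that binds rRNA in the large subunit. Its values were 149 and 146 in KO, 158 in both SETD2 FL libraries, but 95.3 and 97.5 with SETD2 C, a fall by 0.61 on the log2 scale (adjusted p = 0.000159). It overlaps MRPL20-AS1 on the opposite strand. MRPL41, a large-subunit protein with no bacterial counterpart, lies on chromosome 9 (137551879 to 137552555, plus strand, 2 exons). It measured 133 and 142 in KO, 144 and 136 with SETD2 FL, but 92.3 and 87.8 with SETD2 C (log2 fold change -0.61, adjusted p = 0.00043). In both genes the SETD2 C libraries lay below the other 4.

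Further large-subunit genes fell by similar amounts. MRPL4, whose protein lines the tunnel of the nascent chain, measured 115 and 119 in KO and 80.6 and 74.3 with SETD2 C (log2 fold change -0.59, adjusted p = 0.00059). MRPL23, which sits at the tunnel exit, measured 172 and 167 in KO and 126 and 110.2 with SETD2 C (-0.52 on the log2 scale, adjusted p = 0.00143). MRPL45 measured 75.8 and 78.7 in KO and 56.2 and 55.6 with SETD2 C (-0.46 on the log2 scale, adjusted p = 0.00113). No library of one group reached into the range of the other for these 3 genes.

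MRPL11 and MRPL12 encode parts of the stalk that recruits translation factors, and both fell, while MRPL10, which joins the stalk to the ribosome, did not pass the test against KO. MRPL11 measured 130.2 and 139 in KO and 93.0 and 86.8 with SETD2 C (log2 fold change -0.58, adjusted p = 0.0013), and it overlaps PELI3 on the opposite strand. MRPL12, the stalk protein and the second most abundant of the 78 transcripts, measured 293 and 301 in KO and 213 and 205 with SETD2 C (log2 fold change -0.51, adjusted p = 0.000367). MRPL37, the most abundant, measured 329.9 and 323 in KO and 272 and 271 with SETD2 C (log2 fold change -0.27, adjusted p = 0.00431).

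In the small subunit, 15 of 26 genes were lower and 1 higher, with a median log2 fold change of -0.28. After MRPS6 came MRPS15, which binds rRNA early in assembly, at 207 and 219 in KO and 154 and 140.4 with SETD2 C (-0.53, adjusted p = 0.00122). MRPS17 followed at 34.13 and 33.05 in KO and 24.0 and 22.4 with SETD2 C (-0.53 on the log2 scale, adjusted p = 0.000947). It overlaps NIPSNAP2 on the same strand. MRPS12, a protein of the decoding centre, measured 64.0 and 66.3 in KO and 47.9 and 44.3 with SETD2 C (-0.50 on the log2 scale, adjusted p = 0.000963). MRPS7 and MRPS23, called higher in KO than in WT in the first table, were lower with SETD2 C than in KO in the second. The falls were 0.31 and 0.29 on the log2 scale (adjusted p = 0.00305 and 0.0141). With SETD2 FL against KO their log2 fold changes were 0.10 and 0.02, and neither passed the test. Levels in the 2 tables were not compared. In the large subunit, 25 of 51 genes were lower and 2 higher, with a median of -0.17. The difference between the subunits was not tested.

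Genes with a bacterial counterpart made up 28 of the 40 that fell and all 3 that rose, where they are 48 of the 78. The share among the falls is near that of the 78, and 3 genes are too few to compare with it. Of the 48 such genes the median log2 fold change was -0.24, and of the 30 without a counterpart, 12 were lower and none higher with a median of -0.17. Across the 78 genes, the log2 fold change had a Pearson's r of -0.32 (Spearman's rho -0.27) with the log2 level in KO and of 0.27 (rho 0.23) with the log2 transcript length. The KO level is also the term subtracted in the fold change, so noise in it alone gives a negative r. For SETD2 FL against KO, where no gene was called, r with that level was -0.42. For SETD2 C against SETD2 FL, r with the level in SETD2 FL was -0.18. These are descriptions across genes of the same libraries, which are not independent, and carry no test.

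**Figure D3:**
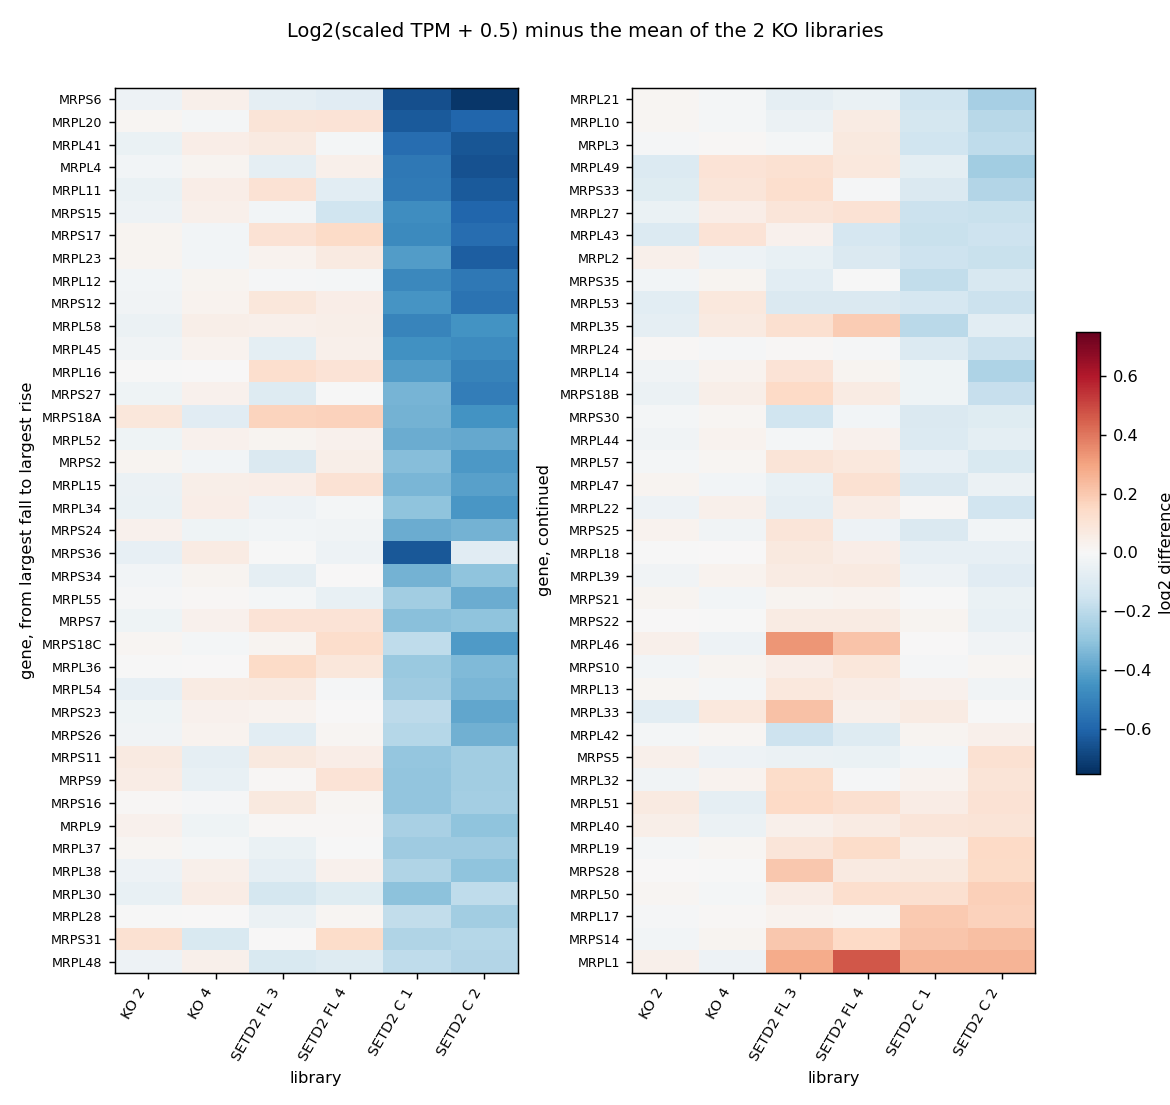
Log2(scaled TPM + 0.5) of the 78 genes in the 6 libraries of the second table, minus the mean of the 2 KO libraries, in order of the difference between SETD2 C and KO (left panel, from the largest fall; right panel, continued). Blue fills the SETD2 C columns of most rows from MRPS6 downwards, and the last rows, ending with MRPL1, are red in them.

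The paralogs MRPS18A, MRPS18B and MRPS18C descend from the same bacterial protein and take different places, MRPS18A in the large subunit and the other two in the small. MRPS18A measured 50.7 and 44.8 in KO, 53.7 and 53.9 with SETD2 FL, but 37.2 and 34.8 with SETD2 C (log2 fold change against KO -0.40, adjusted p = 0.00481). MRPS18C measured 62.6 and 61.5 in KO and 54.3 and 46.1 with SETD2 C (-0.31, adjusted p = 0.0226). MRPS18B measured 94.2 and 100.2 in KO and 95.001 and 85.9 with SETD2 C, which overlapped (-0.10 on the log2 scale, adjusted p = 0.262). MRPS18A and MRPS18C therefore fell and MRPS18B did not pass the test, and the difference among the 3 was not tested. The call for MRPS18C was lost without KO replicate 2, KO replicate 4 or SETD2 C replicate 2.

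The other genes whose names mislead did not pass the test. MRPS30, of the large subunit, measured 49.9 and 51.0 in KO and 46.7 and 47.3 with SETD2 C (adjusted p = 0.23). MRPS36 measured 61.0 and 66.6 in KO and 40.8 and 60.1 with SETD2 C (log2 fold change -0.36, adjusted p = 0.0976), so its spread lay mostly between the SETD2 C libraries. Without SETD2 C replicate 2 it was called lower (adjusted p = 0.0046).

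The 3 genes that rose with SETD2 C all encode proteins with bacterial counterparts, as do 48 of the 78. MRPL1 measured 22.3 and 21.1 in KO and 26.0 and 25.9 with SETD2 C (log2 fold change 0.25, adjusted p = 0.0361). MRPS14 measured 49.4 and 50.7 in KO and 57.8 and 58.6 with SETD2 C (0.22 on the log2 scale, adjusted p = 0.0164). MRPL17, which lies by the tunnel exit, measured 68.8 and 69.6 in KO and 79.2 and 77.98 with SETD2 C (0.18 on the log2 scale, adjusted p = 0.0238). The rises were small, and all 3 calls were lost when KO replicate 2, KO replicate 4, SETD2 C replicate 1 or SETD2 C replicate 2 was left out. The number of genes lower was 30 to 39 with 1 library of the table left out, the fewest without KO replicate 4, where 29 of the 40 remained.

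**Figure D4:**
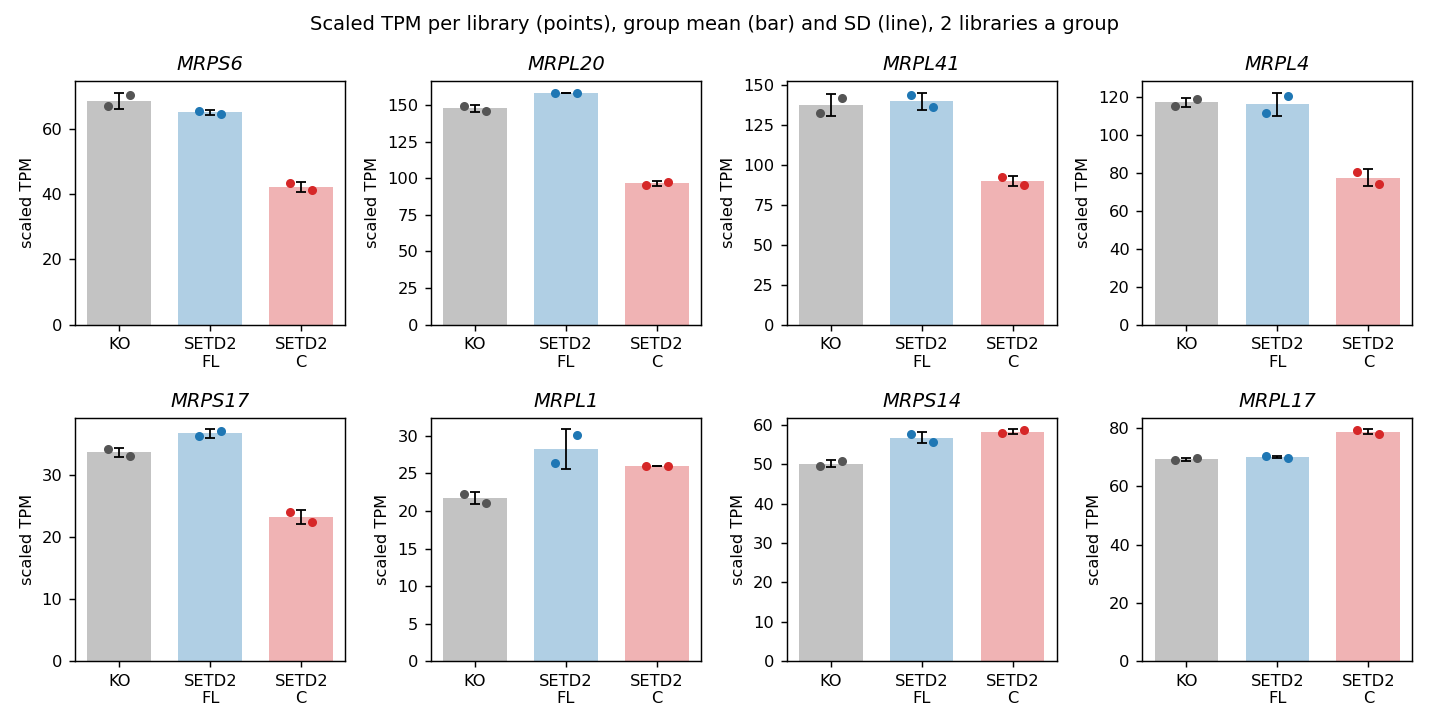
Scaled TPM of 8 genes in the 2 libraries of each group of the second table (points), with the group mean (bars, from 0) and SD (lines). In MRPS6, MRPL20, MRPL41, MRPL4 and MRPS17 both SETD2 C libraries lie below the other 4, in MRPL17 they lie above them, and in MRPL1 and MRPS14 both constructs lie above KO.

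The third comparison sets SETD2 C against SETD2 FL, and so transfected cells against transfected cells, although the SETD2 TPM also differed between the constructs. TPM is per length, and whether it puts the truncated and the full-length insert on the same scale was not tested. This comparison shares the SETD2 C libraries with the one above, so its values are set beside those and are not independent of them. With SETD2 C, 43 of the 78 genes were lower than with SETD2 FL and 2 were higher, by limma with Benjamini-Hochberg adjustment. Of all genes 16.8% were lower and 21.4% higher, and of the 7425 genes restricted by TPM 27.0% and 17.1%. The median log2 fold change was -0.24 against 0.04 for all genes and -0.06 for those restricted by TPM. Of the 78 values 72 were negative, where 7198 of all 15929 genes and 4346 of the 7425 had a negative value. None was called with a fold change of at least 2, where 3.79% of all genes and 102 of the 7425 were. An unadjusted p under 0.05 was reached by 52, where 48.8% of all genes reached it. Both SETD2 C libraries lay below both SETD2 FL libraries for 64 genes and above for 5, where 32.0% of all genes lay below and 40.3% above. Of the 7425 restricted by TPM, 3390 lay below and 2250 above. Of the small subunit genes 17 of 26 were lower and none higher (median -0.30), and of the large subunit genes 26 of 51 were lower and 2 higher (median -0.19).

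MRPL20 had the largest fall against SETD2 FL, from 158 in both libraries to 95.3 and 97.5 (log2 fold change -0.71, standard error 0.05, adjusted p = 6.83e-05). MRPS17 followed at 36.2 and 37.1 in SETD2 FL cells and 24.0 and 22.4 in SETD2 C cells (-0.65 on the log2 scale, adjusted p = 0.000364). MRPL41 fell by 0.63, MRPS6 by 0.62, MRPL11 by 0.60 and MRPL4 by 0.58 on the log2 scale. MRPL16, whose protein touches tRNA near the catalytic centre, measured 85.5 and 84.0 in SETD2 FL cells and 58.4 and 55.2 in SETD2 C cells, a fall by 0.57 (adjusted p = 0.000316). MRPS18A fell by 0.57, MRPL23 by 0.57 and MRPS12 by 0.56. The same SETD2 C libraries were therefore lowest for these genes whichever group they were set against.

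MRPL17 was higher with SETD2 C, at 79.2 and 77.98 against 70.4 and 69.8 with SETD2 FL (log2 fold change 0.16, adjusted p = 0.033). MRPL42, a large-subunit protein with no bacterial counterpart, measured 122 and 124 with SETD2 C and 108 and 112 with SETD2 FL (0.15 on the log2 scale, adjusted p = 0.0419), but also 119 and 121 in KO. Both calls were lost when any 1 library of the table was left out. MRPL1 and MRPS14, higher with SETD2 C than in KO, did not differ detectably between the constructs, with 95% intervals of the log2 fold change of -0.30 to 0.06 and -0.08 to 0.16.

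A total of 36 genes were lower with SETD2 C than in KO and also lower than with SETD2 FL, which is 36 of the 40 and of the 43. Both comparisons use the SETD2 C libraries, and of all genes tested 11.6% were lower in both, or 19.8% of the 7425 restricted by TPM. The 4 called only against KO were MRPL2, MRPL21, MRPL30 and MRPL48, and the 7 called only against SETD2 FL were MRPL10, MRPL27, MRPL35, MRPL46, MRPL49, MRPS18B and MRPS31. These were listed because of their calls, and whether the 2 differences of each gene are unequal was not tested.

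The counts depended on the scaling between libraries. Leaving the values unscaled moved the median over all genes from 0.05 to 0.18 for SETD2 C against KO, from 0.04 to 0.16 against SETD2 FL, and from -0.01 to 0.11 for KO against WT. Against KO, 22 of the 78 genes were then lower and 11 higher, so that 66.7% of calls were falls instead of 93%, where 7% of all genes were lower and 34.6% higher. With SETD2 and the mitochondrially encoded genes taken out of TPM, 30 were lower and 7 higher, so that 81.1% of calls were falls, where 9.24% of all genes were lower and 28.8% higher. Quantile normalization gave 35 lower and 3 higher, where 17.5% of all genes were lower and 15.4% higher. Relative to the median of all genes, the median of the 78 against KO was lower by 0.25 after scaling. It was lower by 0.24 unscaled and with those genes taken out, and by 0.11 after quantile normalization. The genes restricted by TPM had a median of -0.05 against KO after scaling, so the gap to them was smaller. In all 4 settings the same 22 genes were lower than in KO, 8 of the small and 14 of the large subunit, and the same 25 lower than with SETD2 FL, with 19 in both lists. Of all genes tested, 6.87%, 9.46% and 5.39% were lower in all 4 settings than KO, than SETD2 FL and than both, and of the 7425 restricted by TPM 10.8%, 14.5% and 8.86%. The 10 largest falls against KO were among the 22, and the 3 rises were called in all 4 settings. A negative value was kept in all 4 by 48 genes against KO and 50 against SETD2 FL, while 16 and 22 changed sign.

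Summed over a subunit, the pattern was seen in both. The small subunit genes summed to 2572 and 2598 scaled TPM in KO, 2620.3 and 2606 with SETD2 FL, but 2195 and 2138 with SETD2 C. The large subunit genes summed to 5455 and 5558, 5604 and 5590, and 4788 and 4661. The SETD2 C sums lay below the other 4 in both subunits, with mean differences of -16.2% and -14.2% from KO and of -17.1% and -15.6% from SETD2 FL. In TPM as deposited the sums were lower than in KO too (-7.13% for the small and -4.92% for the large subunit), as they were without the mitochondrially encoded genes and SETD2 (-10.4% and -8.22%). In the first table the sums were higher in KO than in WT by 2.55% and 4.96% after scaling and by 12.1% and 14.8% as deposited, with WT replicate 1 the lowest of the deposited sums. The scaled differences moved to 4.41% and 8.14% without WT replicate 1, to 0.556% and 1.77% without WT replicate 2, to 4.41% and 5.87% without KO replicate 1, and to 0.987% and 4.35% without KO replicate 2.

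**Figure D5:**
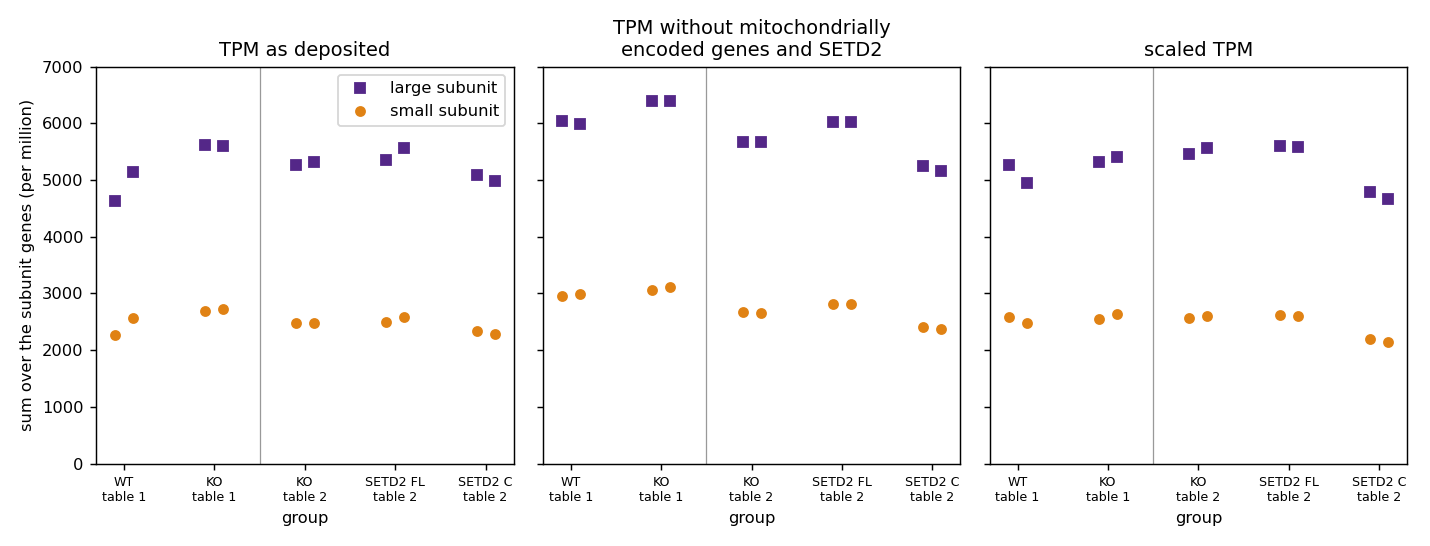
Sum over the 51 large subunit genes (purple squares) and the 26 small subunit genes (orange circles) in each of the 10 libraries, as deposited (left), without the mitochondrially encoded genes and SETD2 (middle), and scaled (right), with a line between the 2 tables. The SETD2 C points are the lowest of the second table in all 3 panels.

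The other genes of the pathway were counted for comparison. Of 27 genes for ribosome assembly and rRNA modification, 13 were lower and none higher with SETD2 C than in KO, with a median log2 fold change of -0.21, and 17 were lower than with SETD2 FL. Of all genes 15.1% were lower than in KO and 16.8% lower than with SETD2 FL, and of those restricted by TPM 25.2% and 27.0%. The largest falls were in MPV17L2, an inner membrane protein needed for the large subunit, at 23.7 and 21.7 in KO and 13.20 and 12.03 with SETD2 C (-0.82 on the log2 scale, adjusted p = 0.000365), and in DDX28, an RNA helicase of large subunit assembly, at 9.76 and 10.2 in KO and 5.63 and 5.25 with SETD2 C (-0.82 on the log2 scale, adjusted p = 0.000585). MRM3, which methylates the large rRNA, was the 1 gene of this list called higher in KO than in WT, at 24.2 in both WT libraries and 31.7 and 33.6 in KO (0.42 on the log2 scale, adjusted p = 0.0333). That call, like the one for TACO1 given next, was lost without WT replicate 1, KO replicate 1 or KO replicate 2. Against SETD2 FL, DDX28 fell by 0.93 and MPV17L2 by 0.91 on the log2 scale (adjusted p = 0.000314 and 0.000202).

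Of 16 genes for translation factors and related proteins, 5 were lower and 1 higher with SETD2 C than in KO, and 7 lower and 1 higher than with SETD2 FL. The 5 lower than in KO are a share near that of the genes restricted by TPM, so the count is no result about this list. The largest falls against KO were in OXA1L, which inserts nascent chains into the inner membrane (log2 fold change -0.57, adjusted p = 0.000693), and TUFM, the elongation factor that delivers tRNA (-0.48, adjusted p = 0.00144). MTRF1L, a release factor, rose by 0.36 (adjusted p = 0.0104), a call lost without KO replicate 4 or SETD2 C replicate 1. TACO1, an activator of cytochrome oxidase translation, was higher in KO than in WT (0.44 on the log2 scale, adjusted p = 0.0327) and lower with SETD2 C than with SETD2 FL (-0.52, adjusted p = 0.0015). Of 5 ribosomal proteins under other symbols, 3 were lower than in KO and 2 lower than with SETD2 FL, with none higher. Of all genes 15.1% and 16.8% were lower, and of those restricted by TPM 25.2% and 27.0%. A list of 5 genes is too short to compare with these shares. The largest falls against KO were in AURKAIP1, of the small subunit, at 159 and 160.0 in KO and 117 and 111 with SETD2 C (-0.48 on the log2 scale, adjusted p = 0.000592), and GADD45GIP1, of the large subunit (-0.31, adjusted p = 0.00713). With SETD2 FL against KO no gene of these 3 lists was called by limma, and at an unadjusted p under 0.05 there were 2, 2 and none.

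The mRNAs that the mitochondrial ribosome translates were also lower with SETD2 C. Of the 13 mitochondrially encoded mRNAs, 11 were lower than in KO (median log2 fold change -1.37) and all 13 lower than with SETD2 FL (median -2.12). Of all genes 15.1% and 16.8% were lower, and of those restricted by TPM 25.2% and 27.0%. With SETD2 FL against KO all 13 had a positive value and none was called by limma. At an unadjusted p under 0.05 there were 11, against 15.9% of all genes. The share of TPM of the 13 mRNAs was 6.73% and 5.88% (KO), 10.4% and 7.43% (SETD2 FL) and 2.44% and 2.78% (SETD2 C). In the first table all 13 had a negative value in KO against WT and none was called by limma. At an unadjusted p under 0.05 there were 5, where 24.9% of all genes reached it. The 2 mitochondrial rRNAs were measured in libraries made after ribodepletion and polyA enrichment, whose part in their values was not tested. MT-RNR1 had a TPM of 923 and 1000.3 in KO, 1881 and 1202 in SETD2 FL cells, and 1438 and 1614 in SETD2 C cells. MT-RNR2 had one of 2227 and 2461 in KO, 3740 and 2444 in SETD2 FL cells, and 3513 and 4275 in SETD2 C cells. For both rRNAs the SETD2 C libraries lay above KO and overlapped those with SETD2 FL.

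Some counts could be shared with other loci. Of the 78 genes, 36 overlap another tested gene, 11 of them on the same strand and 27 on the opposite strand. A total of 75 pseudogenes of 34 of the genes are listed, and 6 of these reached a TPM of 1 in any library, the highest being MRPL45P2 at 9.12, MRPS31P4 at 7.01 and MRPS31P5 at 5.69. Values of MRPL45 and MRPS31 are therefore the least certain in this respect.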

How the data were processed

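RNA-seq of 10 HEK293T libraries was analysed, grouped by the sample labels. The authors aligned reads to hg38 with STAR 2.6.1c and deposited TPM per gene from RSEM 1.3.0 in 2 tables, with no normalization between libraries. TPM keeps no depth, so no counting error is given. Gene types and positions came from GENCODE 44 on GRCh38 (58472 genes matched by identifier, 21 by symbol, 391 not). A scaling factor per library was the median, over protein-coding genes and lncRNAs at TPM 1 or above throughout a table, of the ratio to their geometric means. Genes of these types entered the test when 2 or more libraries reached TPM 0.5, and limma 3.58.1 (R 4.3.3) was run on log2(scaled TPM + 0.5) (eBayes with trend, two-sided). The 6 libraries of the second table shared a fit. Standard errors and 95% intervals are from limma.

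The members and lists were chosen with earlier results of these data known. Genes named were, per comparison, up to 10 largest rises and 10 largest falls among called members (the 3 smallest adjusted p where fewer than 3 were called), the 5 highest and 5 lowest levels, MRPS18A to MRPS18C, MRPS30 and MRPS36, and up to 2 rises and 2 falls of each other list. MRPS33 and the genes called against KO only or SETD2 FL only were named after their values were seen. Bacterial counterparts and roles are textbook knowledge. On simulated data for SETD2 C against KO (15929 genes), 9 of 50 changes of 0.3, 34 of 50 of 0.6 and all 50 of 1.5 on the log2 scale were recovered. For KO against WT (14741 genes), 2, 22 and 43 of 50 were recovered. The simulations changed only 50 genes at each size, whereas 3358 genes were called higher and 2404 lower for SETD2 C against KO. The Benjamini-Hochberg adjustment is stricter where fewer genes change, so these shares are not the power of the real comparisons.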

Additional observations from a re-analysis of the deposited data

How the results depend on the processing

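The alternatives were other pseudocounts and filters, no scaling, quantile normalization, TPM rescaled without mitochondrially encoded genes and SETD2, no trend, a fold change of 2 added, fits of 2 groups alone, and each library left out. No member's call reversed. For KO against WT, the 2 higher calls became 0 without a filter, without trend and with the fold change added, and the median of 0.05 became 0.18, and the sums 12.1% and 14.8%, without scaling. With 1 library left out, 0 to 2 were higher and 0 to 1 lower. A replicate block over the shared numbers 1 and 2 gave 4 higher, where 3% of all genes were higher against 1.32% without it. But same-numbered libraries had a deviation correlation of 0.147 over only 2 pairs, so the numbers are not shown to pair them. No paired analysis was possible because the groups of the second table share fewer than 2 replicate numbers. For SETD2 FL against KO the median became 0.093 and the sums 5.66% and 6.24% without mitochondrial genes and SETD2, and the sums 2.52% and 3.08% without scaling. For SETD2 C against KO, no scaling gave 22 lower, 11 higher, a median of -0.055 and sums of -7.13% and -4.92%. Quantile normalization gave a median of -0.14, and the rescaled TPM gave 7 higher, a median of -0.11 and sums of -10.4% and -8.22%. The higher calls were 0 without trend, and 0 genes were called in either direction with the fold change added. Leaving out 1 library gave 30 to 39 lower and 0 to 3 higher. For SETD2 C against SETD2 FL, no scaling gave 25 lower, where 9.47% of all genes were lower, a median of -0.12 and sums of -9.41% and -7.76%. Quantile normalization gave a median of -0.19, and the rescaled TPM sums of -15.2% and -13.6%. The higher calls were 0 without trend, in a fit of the 2 groups alone and with any library left out, and both directions 0 with the fold change added. Leaving out 1 library gave 34 to 43 lower and a median of -0.27 to -0.19. The cause of these shifts was not tested. Precision is limited by 2 libraries a group and an unknown depth.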
